A study of Mus musculus with 2 samples.

Results

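The genes described here encode splicing factors and heterogeneous nuclear ribonucleoproteins (hnRNPs). They are the mouse protein-coding genes whose symbols begin with Srsf, Snrp, Sf3a, Sf3b, Hnrnp, Prpf or U2af, together with Rbm39 and Sf1. This rule gave 71 genes of 21480 protein-coding genes whose strand was known. CHD2, a chromatin remodeller with paired chromodomains and a helicase-like motor, was precipitated with a CHD2 antibody from ES-E14 cells, an embryonic stem cell line from a male mouse embryo of strain 129/Ola. The study has 1 group of 2 biological replicates, and the labels name no treatment, mutation or contrast. It is a single line, and both replicates carry the same biosample record in the labels, so the spread between them may be technical. What was analysed are peak lists: an optimal list of 8282 peaks made from both replicates by the irreproducible discovery rate procedure, and the relaxed list of each replicate, limited to its 8282 strongest peaks. Sequencing depth is unknown, and the control was not analysed here.

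Pre-mRNA splicing is carried out by the spliceosome, which is assembled from small nuclear ribonucleoprotein particles (snRNPs) and many further proteins. SR proteins bind exons and usually favour the use of nearby splice sites, whereas many hnRNPs coat the transcript and often favour skipping. Most of these genes are expressed in essentially all cells, their promoters are typically rich in CpG, and many of their transcripts are themselves controlled by splicing, for example through exons that trigger decay of the message.

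Each gene was scored by the strongest peak whose summit lay within 1 kb of its outer 5′ end, called here a promoter peak. The strength is the signal that the authors' caller gave each peak. Its normalization is not stated, so signals were compared within 1 list and not between lists. An offset is the distance of the summit from the 5′ end, negative upstream and positive inside the gene. The members and their subfamilies are described by counts and medians beside the same over all genes. No p-value is given, since genes are not replicates and the study has no second group.

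About 1 member in 2 carried a CHD2 promoter peak. In the optimal list 35 of 71 members did (49.3%), against 3035 of 21480 protein-coding genes (14.1%). In the list of replicate 1 the count was 35 members (49.3%), against 3130 genes (14.6%), and in that of replicate 2 it was 33 members (46.5%), against 3050 genes (14.2%). All 3 lists held a promoter peak for 28 members, 80% of the 35, against 2170 genes, which are 10.1% of all genes and 71.5% of those with an optimal peak. Strong peaks were also frequent. Among the 1000 strongest optimal peaks, promoter peaks of 15 members were found (21.1% of members), against 808 genes (3.76%). The 35 members rested on 35 different peaks on 16 chromosomes, so no peak was counted for 2 members. Elsewhere neighbouring genes did share peaks, since the 3035 genes rested on 2602 peaks.

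The median optimal signal of the 35 members was 72.1, with a lowest value of 15.4 and a highest of 324, against a median of 45.0 for all genes with a promoter peak. In the replicates' own lists the members' medians were 43.0 and 39.1, against 22.8 and 22.7 for all genes.

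**Figure D1:**
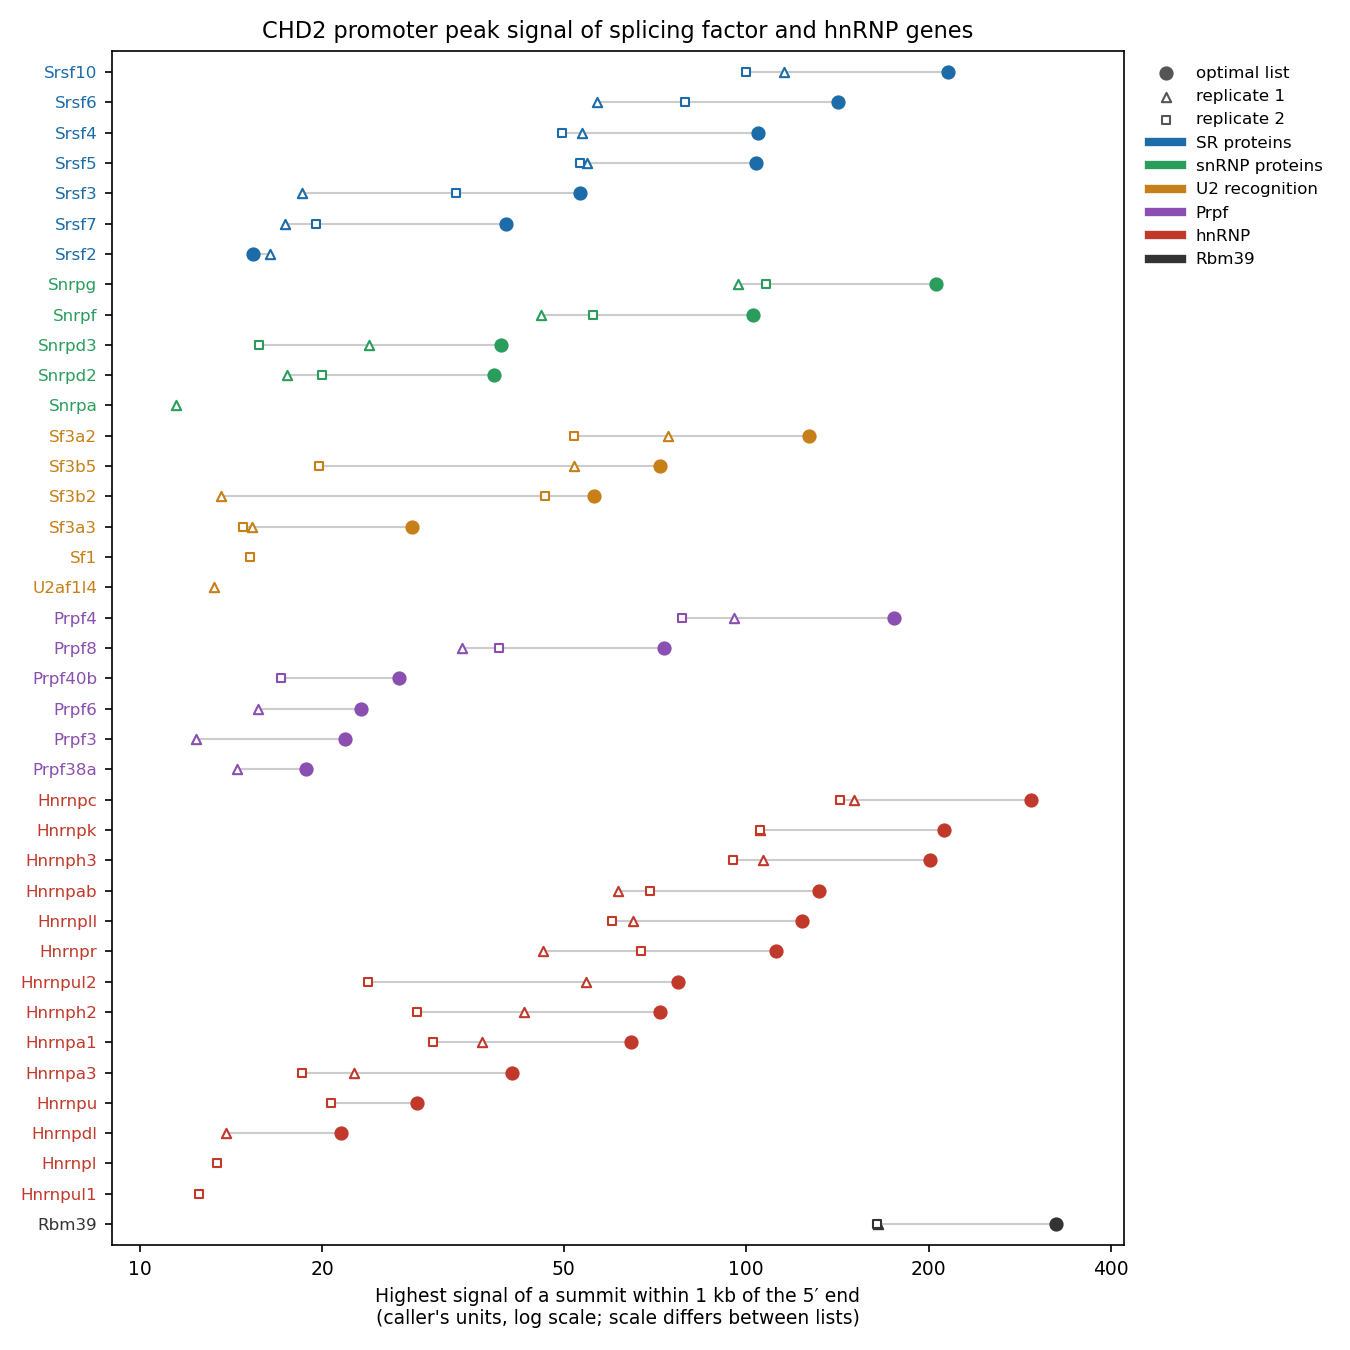
Highest promoter peak signal (log axis, caller's units) of 39 of the 40 members with a promoter peak in at least 1 of the 3 lists, ordered by subfamily and by optimal signal. Filled circles are the optimal list, open triangles replicate 1 and open squares replicate 2, and a grey line joins the values of a gene; Rbm39 has the highest value at 324 and 5 members have a value in 1 replicate alone.

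Sequences under summits of different strength show what these sites look like. Which members had a window was set by the cover of the promoter table and by a limit on bases inside genes, not by signal. For 12 members a window of 101 bases centred on the optimal summit met both conditions and was taken from the RefSeq promoter table of GRCm38.p6. At most 30 of its bases lay inside any gene. Of the 12 windows, 10 are printed here, in the direction of the gene. Prpf6 (23.2) and Prpf3 (21.8), the weakest of the 12, were left out, and their windows held no CCAAT box. Capitals mark exact matches, on either strand, to 6 of the 13 motifs that were searched. The box bound by the factor NFY was searched as CCAAT. Sites of ETS factors were searched as CCGGAAG. The GC box, bound by SP factors, was searched as GGGCGG. For YY1 the letters were GATGGCG. A match on the opposite strand is printed as its reverse complement, so that the NFY box can also read ATTGG. A stretch of the ZNF143 site was searched as ACTACAA. The TATA box was searched as TATAAA. In the first 6 genes the window held at least 1 CCAAT box.
Rbm39 (chr2:156180248-156180348, minus strand): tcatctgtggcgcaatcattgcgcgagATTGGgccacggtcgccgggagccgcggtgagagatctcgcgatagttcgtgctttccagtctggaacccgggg
Hnrnpc (chr14:52104092-52104192, minus strand): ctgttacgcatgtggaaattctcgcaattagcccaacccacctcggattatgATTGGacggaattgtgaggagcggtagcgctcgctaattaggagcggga
Snrpg (chr6:86371384-86371484, plus strand): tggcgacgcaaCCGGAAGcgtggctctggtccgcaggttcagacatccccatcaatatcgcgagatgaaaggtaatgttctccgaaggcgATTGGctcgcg
Hnrnpab (chr11:51606860-51606960, minus strand): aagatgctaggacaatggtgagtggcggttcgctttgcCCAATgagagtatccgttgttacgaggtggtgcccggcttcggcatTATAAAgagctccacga
Hnrnpr (chr4:136310855-136310955, plus strand): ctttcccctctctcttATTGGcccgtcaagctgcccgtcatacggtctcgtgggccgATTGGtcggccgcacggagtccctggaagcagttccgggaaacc
Hnrnph2 (chrX:134601048-134601148, plus strand): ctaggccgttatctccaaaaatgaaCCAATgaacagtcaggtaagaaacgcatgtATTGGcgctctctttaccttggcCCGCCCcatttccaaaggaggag
The next 4 windows held no CCAAT box and are shown for contrast. The Prpf4 window had no match to any of the 13 motifs although its peak was the seventh strongest among members.
Prpf4 (chr4:62408617-62408717, plus strand): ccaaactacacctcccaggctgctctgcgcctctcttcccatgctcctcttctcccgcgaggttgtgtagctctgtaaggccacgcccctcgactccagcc
Sf3b2 (chr19:5295516-5295616, minus strand): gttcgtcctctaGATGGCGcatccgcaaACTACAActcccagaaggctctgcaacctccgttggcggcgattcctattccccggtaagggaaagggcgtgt
Srsf7 (chr17:80207375-80207475, minus strand): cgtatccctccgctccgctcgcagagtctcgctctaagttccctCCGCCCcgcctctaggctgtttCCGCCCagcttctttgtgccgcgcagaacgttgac
Sf3a3 (chr4:124714728-124714828, plus strand): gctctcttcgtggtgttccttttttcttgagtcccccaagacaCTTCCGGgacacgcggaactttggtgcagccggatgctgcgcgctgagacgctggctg
In Hnrnpc a CCAAT match began 2 bases downstream of the summit, in Hnrnph2 one began 5 bases downstream and in Hnrnpr 7 bases downstream. Over the 19 members whose whole window lay in the table, 11 held CCAAT (57.9%), against 57.6% of 1424 genes, so this box was as common under other CHD2 summits as under those of splicing genes. GGGCGG was found in 5 of the 19 members (26.3%), against 30.8% of the 1424 genes. GATGGCG was found in 2 (10.5%), against 1.33%. CTCGCGAG, the core of the ZBTB33 site, was found in 0 of the 19, against 8.15%. A match describes letters and does not show that a factor was bound.

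Rbm39, whose product is a U2AF-related protein that works with several transcription factors, had the strongest promoter peak of all members. Its signal was 324 in the optimal list (rank 62 of 8282), 165 in replicate 1 and 164 in replicate 2. The peak (chr2:156180075-156180565, mm10) had its summit at −60 bp. The nearest end of any other gene was 16349 bp away, so this peak stood at a promoter with no close neighbour.

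SR proteins carry an RNA recognition motif and a domain rich in arginine and serine. Of 11 Srsf genes, 7 had a promoter peak in the optimal list (63.6%), 7 in replicate 1 and 6 in replicate 2, and their median optimal signal was 104. Srsf10, which encodes an SR protein that becomes a splicing repressor when dephosphorylated, had the highest signal, with 215 in the optimal list, 115 in replicate 1 and 99.8 in replicate 2 (chr4:135855914-135856216). Its summit lay 327 bp inside the outer 5′ end but 8 bp inside the nearest start of the promoter table. Srsf6 followed with 142 in the optimal list, 56.8 in replicate 1 and 79.3 in replicate 2 (chr2:162931120-162931302), with a summit at −286 bp. In both replicates Srsf10 and Srsf6 stood above the medians of all genes given before. Srsf4, one of the longest SR proteins, had 105 in the optimal list, 53.7 in replicate 1 and 49.8 in replicate 2. Srsf5 had 104, 54.7 and 53.2 in the same lists. At Srsf5 the strongest of 3 summits within 1 kb lay 671 bp inside the gene, while a weaker one of signal 15.4 lay 7 bp from the 5′ end.

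The remaining Srsf peaks were weaker. Srsf3, the smallest SR protein, had 53.3 in the optimal list, 18.5 in replicate 1 and 33.2 in replicate 2. Srsf7 had 40.2, 17.4 and 19.5. The 5′ end of Srsf7, which encodes an SR protein with a zinc knuckle, lies 135 bp from that of the divergent gene Gemin6, a member of the SMN complex that assembles snRNPs. The same peak was counted for both genes. Srsf2, the SC35 protein, had the lowest optimal signal of any member with a peak, 15.4, with 16.4 in replicate 1 and no peak among the strongest 8282 of replicate 2. Its optimal summit lay at 493 bp inside the gene and its replicate 1 summit at 34 bp. No optimal promoter peak was found at Srsf1, Srsf9, Srsf11 and Srsf12.

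Snrp genes encode the Sm proteins, which form a ring on most of the spliceosomal RNAs, and proteins of single particles. Of the 12, 4 had a promoter peak in the optimal list (33.3%), 5 in replicate 1 and 4 in replicate 2. All 4 encode Sm ring proteins, a class with 8 genes in the set, and none of the 4 genes for proteins of the U1 or U2 particle had one in the optimal list. Over all genes the share was 14.1%, so a count of 0 in 4 genes lay near it. Snrpg was the strongest, with 206 in the optimal list, 97.1 in replicate 1 and 108 in replicate 2 (chr6:86371287-86371551). In both replicates its summit lay at the same base, at −106 bp. Snrpf had 103 in the optimal list, 45.9 in replicate 1 and 56.0 in replicate 2. The remaining Sm genes with a peak were below the median of all genes in the optimal list. Snrpd3 had 39.4, 23.9 and 15.7 in the same lists, and Snrpd2, another D-type Sm gene, had 38.4, 17.5 and 20.004. The Snrpd3 summit lay 12 bp from the start of its divergent neighbour Gucd1 and 82 bp from Snrpd3 itself. Snrpa, an RNA-binding protein of the U1 particle, had a peak of 11.5 in replicate 1 alone. None of the 3 lists held a promoter peak for Snrpa1, Snrpb, Snrpb2, Snrpc, Snrpd1, Snrpe or Snrpn, the last an imprinted gene. Snrpn was scored at the outer end of a long annotation (chr7:59982495-60450177), where its promoter held 2 CpG. A start farther inside that gene would not have been scored.

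The SF3A and SF3B complexes, U2AF and SF1 recognise the branch point and the 3′ splice site. Of their 13 genes, 4 had a promoter peak in the optimal list (30.8%), 5 in replicate 1 and 5 in replicate 2. Sf3a2 had 127 in the optimal list, 74.4 in replicate 1 and 52.0 in replicate 2 (chr10:80798829-80799003), with a summit 181 bp inside the gene. Sf3b5, a small SF3B subunit, had 72.1, 52.0 and 19.8, so its replicates differed 2.63-fold. Sf3b2 had 56.2, 13.6 and 46.5, with a ratio of replicate 1 to replicate 2 of 0.293. These 2 SF3B genes had the highest and the lowest ratio of replicate 1 to replicate 2 among the 28 members with both values. The replicate summits of Sf3b2 lay 140 bp apart and its peak was not in the conservative list, a shorter list of 7530 peaks. Sf3a3 had 28.1, 15.3 and 14.8. U2af1l4, a paralogue of the small U2AF subunit, had 13.3 in replicate 1 alone, and Sf1, the branch point binding protein, had 15.2 in replicate 2 alone. In no list was a promoter peak found for Sf3a1, Sf3b1, Sf3b3, Sf3b4, Sf3b6, U2af1 or U2af2.

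Prpf genes are named after yeast pre-mRNA processing mutants. Of the 13, 7 had a promoter peak in the optimal list (53.8%), 6 in replicate 1 and 4 in replicate 2. Their median optimal signal of 26.7 was the lowest of the 5 larger subfamilies in that list, but not in the replicates' lists. In replicate 1 the Prpf median was 17.2, against 15.3 for the U2 recognition genes. In replicate 2 it was 37.6, against 30.4 for Hnrnp and 19.8 for the U2 recognition genes. Among the 5 genes for proteins of the U4/U6.U5 tri-snRNP, the particle that brings the catalytic RNAs, 4 had an optimal peak. Prpf4 was strong, with 175 in the optimal list, 95.5 in replicate 1 and 78.4 in replicate 2 (chr4:62408544-62408796). That summit lay 42 bp from the divergent gene Cdc26, an anaphase-promoting complex subunit, and 95 bp from Prpf4. Prpf8, the protein at the heart of the active site, had 73.3 in the optimal list, 34.1 in replicate 1 and 39.1 in replicate 2.

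A further 4 Prpf peaks were each in a single replicate's list. Prpf40b had 26.7 in the optimal list and 17.1 in replicate 2. Prpf6, which bridges U5 and U4/U6, had 23.2 in the optimal list and 15.7 in replicate 1. Prpf3, a U4/U6 protein, had 21.8 and 12.4 in the same lists. Prpf38a had 18.8 and 14.5 there. All 4 replicate values were below the medians of all genes in the same lists, 22.8 in replicate 1 and 22.7 in replicate 2. The lists ended at 11.1 in replicate 1 and 11.6 in replicate 2. Among the 8282 peaks of the list that held it, Prpf40b had rank 3919, Prpf6 4363, Prpf38a 5026 and Prpf3 6635. Prpf18, Prpf19, Prpf31, Prpf38b, Prpf39 and Prpf4b had no promoter peak in any list.

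The hnRNP genes formed the largest subfamily. Of 21, 12 had a promoter peak in the optimal list (57.1%), 11 in replicate 1 and 13 in replicate 2, with a median optimal signal of 94.6. Hnrnpc, whose product binds uridine tracts, had 295 in the optimal list (rank 95), 151 in replicate 1 and 143 in replicate 2 (chr14:52103984-52104367). The summit lay between Hnrnpc and the divergent gene Rpgrip1, 103 bp from Hnrnpc and 99 bp from Rpgrip1. Hnrnpk, which encodes a poly(C)-binding protein, had 212, 106 and 106 (chr13:58402402-58402678). Its summit lay 804 bp inside the outer 5′ end, at −422 bp from the nearest start in the promoter table and 291 bp from the start of the neighbouring gene Rmi1. A further peak of 71.8 lay 1769 bp inside Hnrnpk.

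Among the hnRNP H and F genes, whose products bind runs of guanine, 2 of 4 had a peak. Hnrnph3 had 201 in the optimal list, 107 in replicate 1 and 95.2 in replicate 2 (chr10:63023848-63024104), with the summit 1 bp inside the 5′ end and 74 bp from the divergent gene Pbld2. Hnrnph2, on the X chromosome, had 72.0, 43.0 and 28.7. Hnrnph1 and Hnrnpf had none. In the A, B and D family 4 of 8 genes had an optimal peak, and all were weaker than that of Hnrnpc. Hnrnpab had 132, 61.6 and 69.5 (chr11:51606854-51606991). Hnrnpa1, one of the most abundant hnRNPs, had 64.7, 36.7 and 30.4. Its replicates marked different summits, 818 bp apart: replicate 2 placed it at −445 bp, nearer to the divergent gene Cbx5, and replicate 1 placed it 373 bp inside the gene. The optimal list held both, the second with a signal of 55.5 and at −80 bp from the start in the promoter table. Hnrnpa3 had 41.1, 22.6 and 18.5. Hnrnpdl had 21.5 in the optimal list and 13.9 in replicate 1.

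Hnrnpll, which controls splicing in lymphocytes, had 124 in the optimal list, 65.0 in replicate 1 and 60.0 in replicate 2. Hnrnpr had 112, 46.3 and 67.2 in the same lists. Both were above the median of all genes in every list. Among the hnRNP U genes, whose founding product is the nuclear matrix protein SAF-A, Hnrnpul2 had 77.2, 54.5 and 23.8. Hnrnpu had 28.6 in the optimal list and 20.7 in replicate 2, and was not in the conservative list. Hnrnpul1 had 12.5 in replicate 2 alone. Hnrnpl, which binds CA repeats, had 13.4 in replicate 2 alone. No list held a promoter peak for Hnrnpa0, Hnrnpa2b1, Hnrnpd, Hnrnpf, Hnrnph1, Hnrnpm or Hnrnpa1l2-ps2, the last a gene that its symbol marks as a pseudogene but that RefSeq lists as protein-coding.

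**Figure D2:**
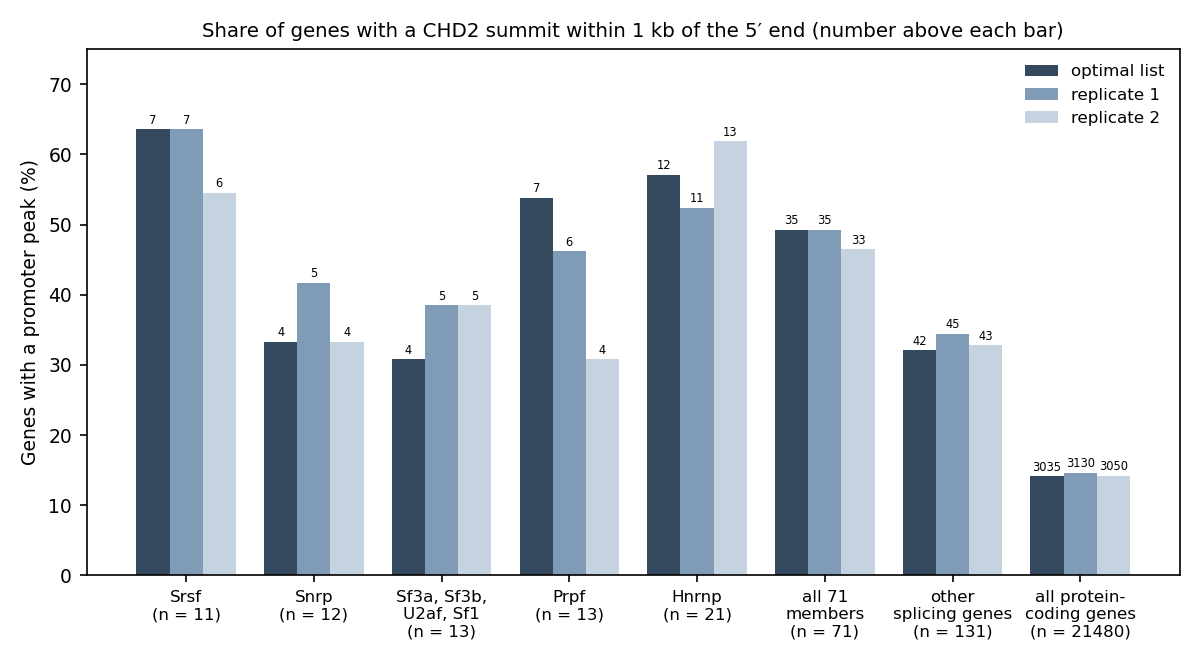
Share of genes (percent) with a summit within 1 kb of the 5′ end in the optimal list, replicate 1 and replicate 2, for 5 subfamilies, all 71 members, 131 other splicing genes and all 21480 protein-coding genes; numbers above bars are gene counts. Each subfamily bar stands above those of all genes, which are 14.1%, 14.6% and 14.2%, and the Prpf bars fall furthest between lists, with 7, 6 and 4 genes.

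Most members without an optimal promoter peak had a weaker summit farther down the relaxed lists. Of the 36 members with no optimal promoter peak, 25 had a summit within 1 kb somewhere in the 300000 relaxed peaks of replicate 1, 29 in those of replicate 2 and 22 in both. Over all genes, with or without an optimal promoter peak, 50.5% and 59.7% had a relaxed peak in replicate 1 and replicate 2. These shares cover another kind of set than the 36 members. The share over genes without an optimal peak was not computed. The members' median relaxed ranks were 29126 and 27017, well beyond the limit of 8282. Just outside the limit stood Snrpd1, at rank 8297 of replicate 2 with a signal of 11.6, and Snrpe, at rank 8403 of replicate 1 with 11.1. Snrpd1 and Hnrnpul1 did have a promoter peak in the conservative list, which is thus not wholly contained in the optimal list. Neither relaxed list held a summit for Hnrnpa1l2-ps2, Hnrnpa2b1, Snrpn and Srsf9. The relaxed ranks of the 2 replicates differed most at Hnrnpl, by 140600 places, at Snrpc, by 129746, and at Sf3a1, by 119894.

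For the 28 members with a promoter peak in both replicates, the replicates' signals had a Spearman's rho of 0.84 and, on log2 signals, a Pearson's r of 0.82, against 0.82 and 0.87 for 2258 genes. These values are descriptions, since all points share an antibody, a cell line and 2 libraries. The median ratio of replicate 1 to replicate 2 was 1.03. The median distance between the replicates' summits was 14.5 bp for members and 19 bp for all genes. It was at most 20 bp for 18 of the 28 members (64.3%), against 52.6% of genes.

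**Figure D3:**
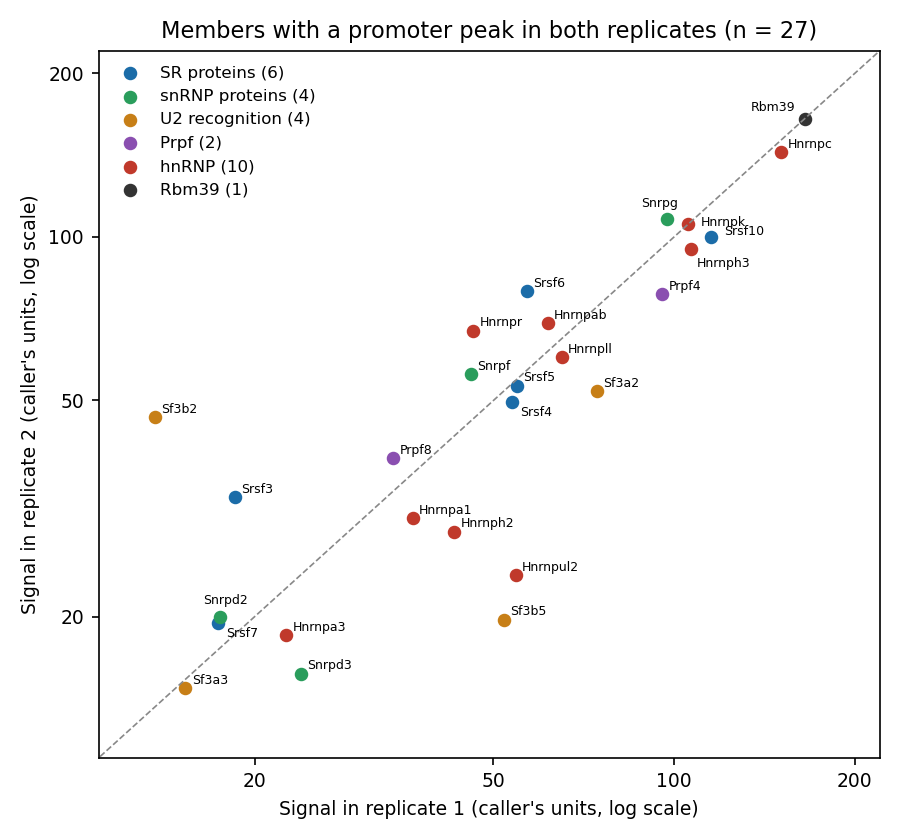
Promoter peak signal in replicate 1 (x axis) and replicate 2 (y axis), both in the caller's units on log axes, for 27 of the 28 members with a value in both lists, coloured by subfamily; the dashed line marks equal values. Rbm39 (165 and 164) and Hnrnpc (151 and 143) lie near the line at the top, and Sf3b2 (13.6 and 46.5) and Sf3b5 (52.0 and 19.8) lie farthest from it on either side.

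Summits lay just upstream of the 5′ end. The median offset of the 35 members was −58 bp, from −447 to 804, against −44 bp for all genes. Of the 35 summits, 26 lay within 150 bp of the 5′ end (74.3%), against 61.0% of genes. Between 100 and 51 bp upstream lay 11 (31.4%), against 18.3%, but between 50 and 1 bp upstream lay 3 (8.57%), against 17.7%. The 100 bp upstream as a whole thus held 40% of the members' summits, against 36.0% of those of all genes. Inside the gene lay 12 (34.3%), against 34.8% of genes. A further 6 lay inside another annotated gene (17.1%), against 15.2%, and 17 lay in no gene (48.6%), against 50.1%.

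By subfamily, the optimal summits of all 4 Snrp genes lay between −106 and −54 bp, and those of all 7 Prpf genes within 150 bp of the 5′ end. In replicate 1 a further Snrp gene, Snrpa, had its summit 527 bp inside the gene. In the mm9 list, set against any GENCODE M1 start, the summit of Prpf6 lay 984 bp inside the gene and that of Snrpd2 at −377 bp. These groups are small, and a difference between them was not tested. The Srsf summits reached from −286 to 671 bp, with 3 of 7 within 150 bp, and the Hnrnp summits reached from −447 to 804 bp, with 8 of 12 within 150 bp. Median offsets were −56 bp for Srsf, −70 bp for Snrp, −86 bp for the U2 recognition genes, −18 bp for Prpf and −33 bp for Hnrnp.

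**Figure D4:**
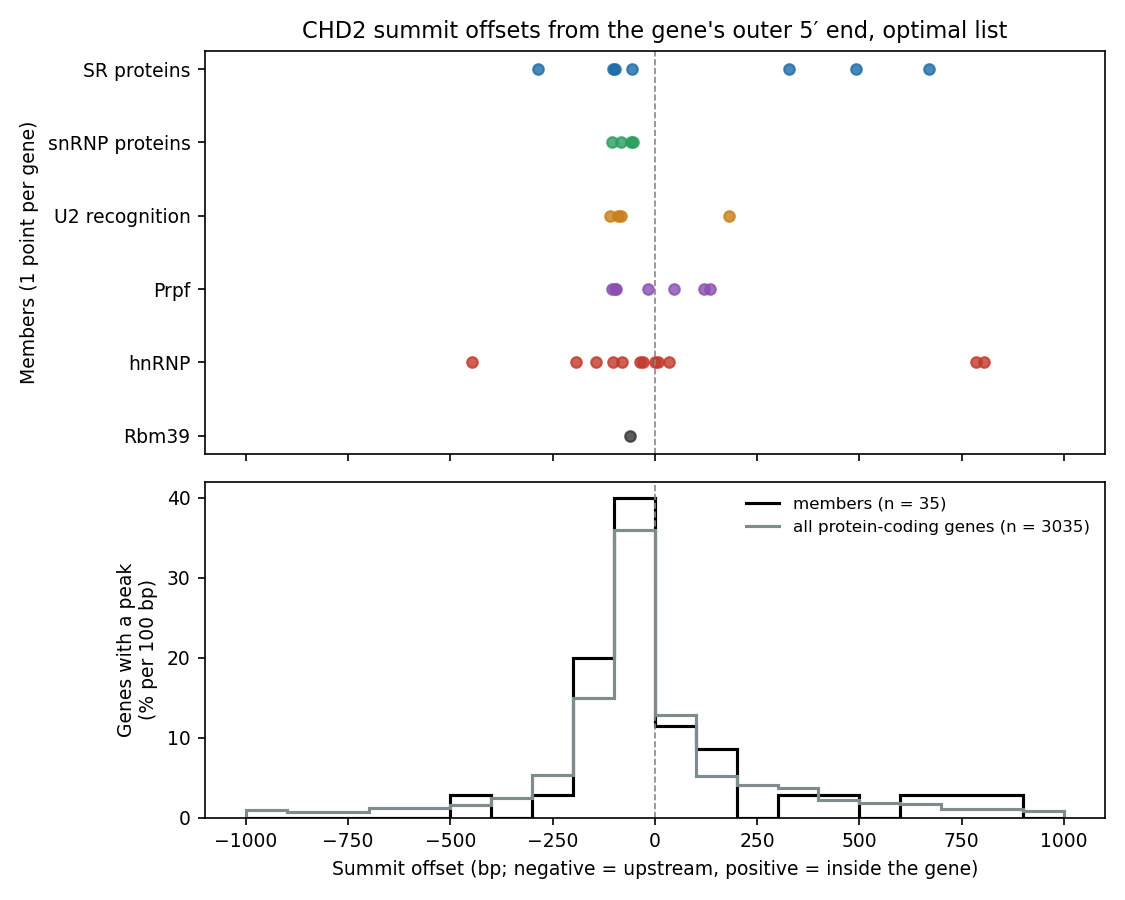
Upper panel, offset in bp of the optimal summit from the outer 5′ end for each of the 35 members, by subfamily; lower panel, percent of genes per 100 bp of offset for the 35 members (black) and the 3035 protein-coding genes with a promoter peak (grey). Both distributions are highest in the 100 bp upstream of the 5′ end, and the points farthest inside genes are Srsf and hnRNP genes.

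Offsets depended on which gene start was used. The outer 5′ end is the edge of the longest annotation, and for 14 of the 62 members in the promoter table (22.6%) the nearest table start lay over 200 bp farther inside. For the 31 members with both a peak and a table start, 27 summits lay upstream of the table start (87.1%), against 21 upstream of the outer end (67.7%). Over 2571 genes the shares were 78% and 66%. The members' median offset was −98 bp from the table start and −58 bp from the outer end, against −76 and −45 bp for all genes. Srsf2 moved to −88 bp, Srsf10 to 8 bp and Hnrnpu to −292 bp. Moves away from the start also occurred. Snrpd2 moved to −451 bp and Hnrnpdl to −680 bp.

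**Figure D5:**
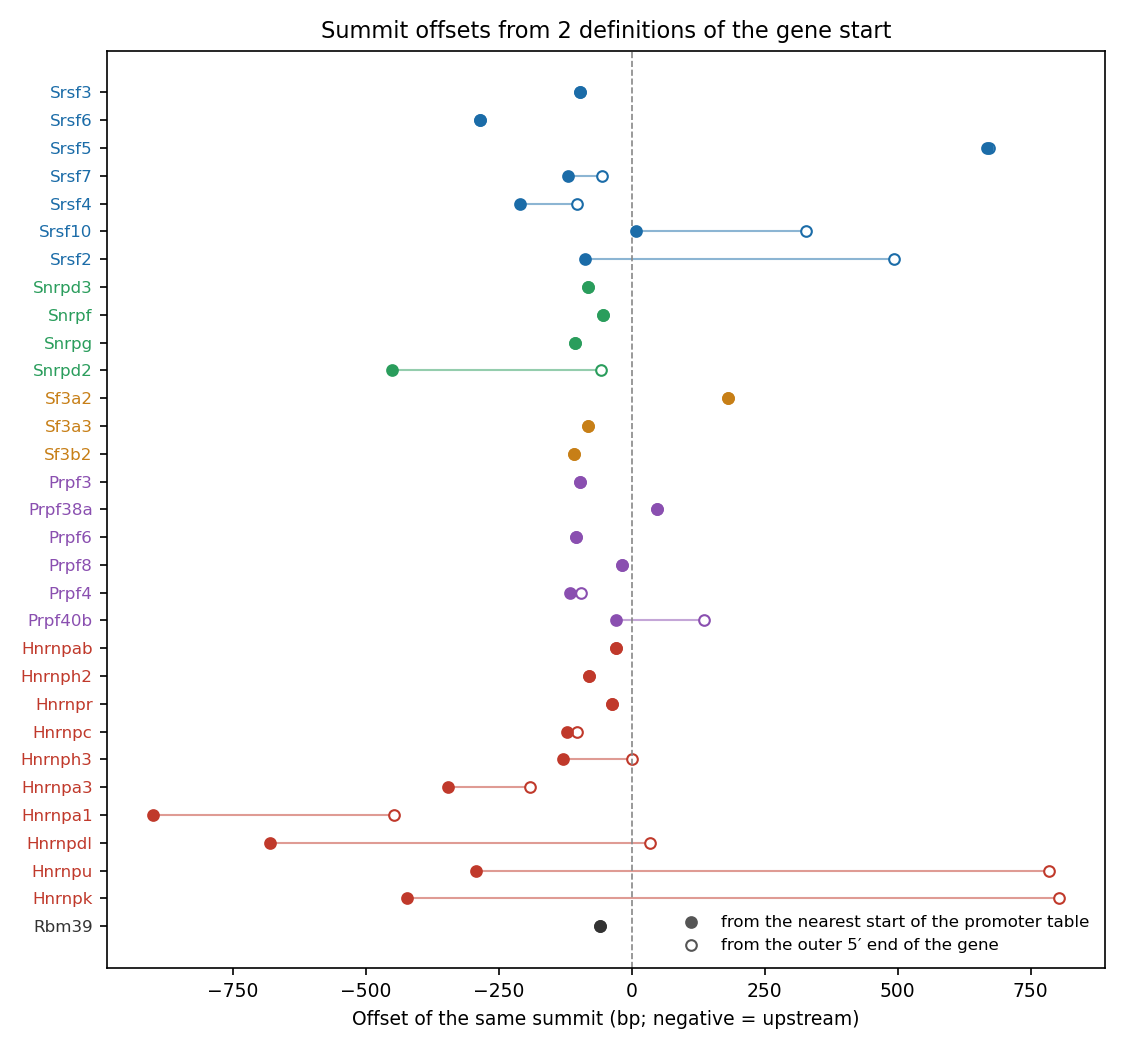
Offset in bp of the same optimal summit from the nearest start in the RefSeq promoter table (filled) and from the outer 5′ end of the gene (open) for the 31 members with both, coloured and ordered by subfamily. A line joins the 2 values of a gene; 27 filled points and 21 open points lie upstream of 0.

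The start also decided which members were counted. Hnrnpl, which has no optimal summit within 1 kb of its outer 5′ end, had a peak of 159 that lay 2253 bp inside that end and at −91 bp from its table start. Srsf1, the founding SR protein, had a peak of 49.9 that lay 1164 bp inside the outer end and 290 bp inside its table start. With any start of the table allowed, Srsf11 (50.7, at −127 bp) and Hnrnpf (32.8, 850 bp inside) were added. The count of members was then 39 of 71, against 15.4% of all genes. Of all members, 11 had an optimal peak inside the gene beyond 1 kb (15.5%), against 9.13% of genes.

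Neighbours on the other strand were frequent. Within 1 kb on either side of the 5′ end, 21 members had the start of a protein-coding gene on the other strand (29.6%), against 2326 genes (10.8%). Not all of these pairs are divergent. At Hnrnpll, Hnrnpd, Sf3b3, U2af1l4, Snrpa and Hnrnpdl the nearest such start lay downstream of the member's 5′ end. The count over all genes was made in the same way. Of these 21, 13 had a promoter peak (61.9%), against 36.5% of such genes. Of the 50 members without such a neighbour, 22 had one (44%), against 11.4% of genes. The higher share among members was thus present with and without a neighbour. For 5 of the 35 members the summit lay nearer to the start of another gene than to the member's own: Hnrnpc, Hnrnpk, Prpf4, Hnrnpa1 and Snrpd3. For such peaks the lists cannot tell which gene CHD2 is at.

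Promoter sequences of 300 bases, from 250 before to 50 after the table start, were compared for members with and without a peak. Peaks were scored at the outer 5′ end, so for some genes the scored summit lay outside these 300 bases. The summits of Hnrnpa1 and Hnrnpdl, for example, lay at −901 and −680 bp from the table start. Hnrnpl counted as without a peak, although a peak of 159 lay at −91 bp from its table start. The 31 members with a peak had a median of 28 CpG and 60.7% G and C, against 24 and 59% in the 31 members without one, 21 and 60.3% in all genes with a peak, and 10 and 55.3% in all genes without one. Members thus had many CpG whether or not they carried a peak, and the part of CpG content in the members' share of peaks was not tested here. CCAAT was found in 18 of the 31 members with a peak (58.1%) and in 14 of the 31 without (45.2%), against 56.6% of all promoters with a peak, 36.2% of those without and 39.2% of all. GGGCGG was found in 20 of 31 in both groups of members (64.5%), against 64.6%, 43.2% and 46.3%. In these promoter windows, which differ from the summit windows above, CTCGCGAG was found in 3 members with a peak, Rbm39, Srsf10 and Srsf4 (9.68%), and in Hnrnph1 among those without (3.23%), against 6.65% of all promoters with a peak, 0.389% of those without and 1.31% of all.

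Other genes of the same machinery, which the symbols leave out, were counted in 9 lists by role. The members' 35 of 71 (49.3%) stood against 42 of 131 such genes (32.1%) in the optimal list, and 35 and 33 members stood against 45 and 43 of them in replicate 1 and replicate 2. This difference was not tested. Over all genes the share was 14.1%, which comes to about 1 gene in the lists of 5 to 8 genes, so their counts of 2 lay near it. The snRNP proteins named Snrnp and Lsm had 8 of 17, led by Lsm3 (289), Lsm8 (157) and Snrnp200 (140), the helicase that unwinds U4 from U6. U2 and other early factors had 7 of 16, with the U1-associated Luc7l2 at 353 and Sugp1 at 295. Tri-snRNP and catalytic factors had 8 of 24, with Cdc5l, a core protein of the Prp19 complex, at 327. The spliceosome helicases had 5 of 10, with Ddx39a at 89.1, and RNA-binding regulators had 7 of 27, with Matr3 at 268 and Khsrp at 210.4. The exon junction complex had 2 of 5, with its helicase Eif4a3 at 370, the minor spliceosome 2 of 6, with Rnpc3, a protein of the U11/U12 particle, at 312, and the SMN complex 2 of 8.

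Within the SR network, of the 11 Srsf genes 7 had an optimal promoter peak (63.6%), against 1 of 18 genes for SR-related proteins and the kinases of SR proteins (5.56%) and 14.1% of all genes. The count of the SR-related genes thus lay near the share over all genes. In replicate 1 the counts were 7 and 2, and in replicate 2 they were 6 and 1. The 1 gene was Pnn, a protein of nuclear speckles, at 33.0. The kinase Clk1 and the exon junction partner Acin1 were among those with no optimal peak. This difference was not tested either.

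The mm9 list of 4613 peaks, made from alignments of the same replicates, was set against any GENCODE M1 start of a gene. The optimal counts used the outer 5′ end alone, so the start used and the list both differ here. It held a promoter peak for 29 of 70 matched members (41.4%), against 10.8% of 22238 genes. Rbm39 was at rank 9 there. Of the 29 members, 5 had no optimal promoter peak, and 11 members with an optimal peak had none on mm9. The 5 were Hnrnpl (215), Srsf1 (64.5), Srsf11 (55.7), Hnrnpul1 (35.4) and Hnrnpf (34.5), and the 11 included Hnrnpc and Sf3a2. Of the 5, all but Hnrnpul1 also had an optimal peak on mm10 when any start of the promoter table was allowed.

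Peaks do not measure expression, so the cell line could not be checked by its transcripts. Of 5 stem cell genes, Sox2 had an optimal promoter peak (25.7), Nanog had one of 14.9 in replicate 2 alone, and Pou5f1, Klf4 and Esrrb had none. The fibroblast genes Col1a1, Col1a2, Vim and Thy1 had no promoter peak in any of the 3 lists.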

How the data were processed

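ChIP-seq of CHD2 was measured in 2 biological replicates of ES-E14 cells. The signal in each peak list is the value the authors deposited; its normalization and the filters are unknown, and names for aligner and caller were not given in the sources used here. Text files deposited beside the lists say that both replicates were combined by the irreproducible discovery rate procedure on mm10 into an optimal and a conservative list, and that the mm9 list used their mm9 alignments. Other deposited columns were not used, and 0 columns of other samples were present. How a caller weighs a control, and how each list was limited, can shift every count. Read depth is unknown.

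Summits came from the deposited summit offsets. Gene ends came from RefSeq GRCm38.p6. Strand came from the RefSeq promoter table of the same build (17492 genes), otherwise from GENCODE M1 by symbol or synonym (3988 genes), which gave 21480 of 21900 protein-coding genes (98.1%). In 47 of 16325 genes found in both the strands conflicted and the promoter table was used. Of the 71 members, 62 were in the promoter table. Its sequences run in the direction of the gene: 20 bases just after the start were found in a GENCODE M1 transcript for 77.5% of entries. The mm9 list was set against GENCODE M1 alone, with any start of a gene allowed, and no coordinate was moved between builds.

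Besides those named with the results, the motifs were the NRF1 core CGCATGCG, the CRE palindrome TGACGTCA, the palindromic E box with its letters CACGTG, an E2F site with its letters TTCCCGC, and a pyrimidine start in a long form, CTCTTTC, and in a short form with the letters CTTTTC, all on both strands. Scores were computed with Python 3.11.15, pandas 2.3.3 and NumPy 2.4.6, and the scoring was tested on simulated data. The members, gene lists, roles and alternatives were chosen with earlier results of these data known. Members were named, with values for those that had an optimal peak, positions for the 10 strongest, and values for members in 1 or 2 lists. One member is counted in the totals but is not reported here by name. From each other list the strongest genes and up to 2 without a peak were named. No test was run, as 1 group allows none.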

Additional observations from a re-analysis of the deposited data

How the results depend on the processing

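Over 13 other settings and 10 results, 109 of 130 recomputed values stayed within 1.5 times the reported count or within the spread between replicates, 21 moved and 0 reversed. The count of members with a promoter peak ranged from 27 among the 4141 strongest optimal peaks to 39 with any start of the promoter table. The ratio of the members' median signal to that of all genes was 1.60 in the optimal list, 1.72 in the pooled relaxed list, and 1.73 to 1.89 with one replicate left out. The median offset of −58 bp became −62 bp without either replicate, −56 bp in the conservative list and with a window of 2.5 kb, −60 bp among the 4141 strongest and with 500 bp, −57 bp with any overlap, −54 bp with peaks nearest to the member, −91 bp from the nearest table start, −82 bp from any table start and −89 bp on mm9. The 12 summits inside genes became 7 among the 4141 strongest, 7 from the nearest table start and 2 on mm9. The 7 Prpf genes became 3 among the 4141 strongest and 4 on mm9, and 4 to 6 with one replicate left out, the lower count without replicate 1. The 4 U2 recognition genes became 2 on mm9. On mm9 any GENCODE M1 start was allowed, not the outer 5′ end alone. The cause of these moves was not tested. The table starts and the strand from GENCODE M1 alone were chosen after seeing the data; the last left 35 of 70 members. No paired analysis was possible because the study has 1 group. Depth is unknown, so a gene without a peak was not detectable in these lists and is not shown to lack CHD2.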
